A study of Mus musculus with 45 samples.

Results

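The cyclins and CDK inhibitors examined here were 10 genes of the 53491 in the tables, taken by name and ordered by the phase of the cell cycle at which they act. They were the G1 cyclins Ccnd1 and Ccnd2, the G1/S cyclins Ccne1 and Ccne2, the S and G2 cyclin Ccna2, the G2/M cyclins Ccnb1 and Ccnb2 with their kinase Cdk1, and the inhibitors Cdkn1b and Cdkn1c. RNA turnover was measured by SLAM-seq, in which 4-thiouridine (4sU) taken up into new RNA is read as T-to-C conversions, in cells dissociated from wild-type mouse cortex of E11.5, E14.5 or E16.5 embryos. Each of 3 biological replicates per stage, A, B and C, was a pool of 7 embryos at E11.5 and of 2 embryos at E14.5 and E16.5, divided over 5 wells and grown in neural progenitor medium with bFGF. All groups received 100 uM 4sU for 20 h, followed by a chase in 5 mM uridine, and wells were collected at 0, 2, 4, 8 and 12 h, which gave 45 libraries. The stages differ in trypsin time as well as in age, and every library is of cultured cells of mixed type, so there is no uncultured control. The 0 h libraries hold cells that had already spent the labeling period in culture.

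Cyclins are regulatory subunits that switch on cyclin-dependent kinases. D-type cyclins respond to growth signals and start phosphorylation of the Rb protein in G1, E-type cyclins drive entry into S phase, cyclin A acts in S phase and G2, and B-type cyclins with Cdk1 drive entry into mitosis. Cdkn1b (p27) and Cdkn1c (p57) bind cyclin-CDK complexes and block them, and both are known for promoting cell cycle exit as cortical progenitors become neurons.

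Across the 45 libraries the recovered read totals ran from 15.9 to 43.9 M, and the members were covered by 194 reads (Ccne2) to 93980 reads (Ccnd2) per library. Marker lists showed a mixed culture that changed with stage. At 0 h the 8 radial glia markers summed to 9718 to 10246 reads per M reads (cpm) at E11.5 and 1496 to 1646 cpm at E16.5, while the 9 neuron markers summed to 3086 to 3682 cpm and 8985 to 9456 cpm. The 6 proliferation markers fell from 1582 to 1740 cpm to 522 to 593 cpm. Erythroid markers (1614 to 3582 cpm) and mural and meningeal markers (460 to 698 cpm) were plentiful at E11.5, and summed to at most 75.7 and 30.9 cpm at the later stages. Every gene of the 11 lists, which held 63 genes, had a read at each stage. In the 12 h libraries of E11.5 one transcript, Gm42418, took 29686 to 67623 cpm against a median of 2868 cpm over all libraries, and the median gene stood -0.16 lower there on the log2 cpm scale. At E14.5 Gm42418 also took 14846.3 and 20506.5 cpm in replicates A and B at 2 h, and 18081.3 cpm in replicate C at 8 h. All fold changes below therefore come from fits with TMM normalization, which scales each library on the bulk of its genes, while cpm values are given as deposited.

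The promoters of the mitotic members are shown first because Ccnb1, Ccnb2 and Cdk1 moved in the same direction in most comparisons below, and the Ccne1 promoter because that gene rose over the chase at the stages where they fell. They come from RefSeq (GRCm38.p6) and run from 250 bases before the start of transcription to 30 bases after it, on the minus strand of the genome for all 4 genes and read 5′ to 3′ along the gene. Capitals mark matches to the cell cycle homology element (CHR, TTTGAA), the CCAAT box (CCAAT) and an E2F-type motif (TTTNNCGC), each searched on both strands, so that a box on the opposite strand reads ATTGG.
Ccne1, chr7:38107461-38107740: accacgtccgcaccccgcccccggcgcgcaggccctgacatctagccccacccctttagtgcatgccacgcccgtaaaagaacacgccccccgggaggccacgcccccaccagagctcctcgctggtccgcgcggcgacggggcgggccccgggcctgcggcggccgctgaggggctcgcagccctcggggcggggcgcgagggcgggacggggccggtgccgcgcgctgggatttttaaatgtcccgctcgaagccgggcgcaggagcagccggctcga
Ccnb1, chr13:100786457-100786736: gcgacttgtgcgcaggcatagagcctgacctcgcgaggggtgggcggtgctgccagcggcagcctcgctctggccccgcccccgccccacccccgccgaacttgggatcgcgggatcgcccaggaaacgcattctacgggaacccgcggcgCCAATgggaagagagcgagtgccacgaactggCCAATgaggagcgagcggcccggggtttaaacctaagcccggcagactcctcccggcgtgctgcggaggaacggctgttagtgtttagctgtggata
Ccnb2, chr9:70421525-70421804: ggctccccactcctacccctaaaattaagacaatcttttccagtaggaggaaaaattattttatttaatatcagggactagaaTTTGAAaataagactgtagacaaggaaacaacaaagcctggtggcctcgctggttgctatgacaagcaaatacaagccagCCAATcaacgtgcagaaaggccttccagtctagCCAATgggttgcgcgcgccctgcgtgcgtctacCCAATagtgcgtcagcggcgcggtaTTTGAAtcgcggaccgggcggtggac
Cdk1, chr10:69352883-69353162: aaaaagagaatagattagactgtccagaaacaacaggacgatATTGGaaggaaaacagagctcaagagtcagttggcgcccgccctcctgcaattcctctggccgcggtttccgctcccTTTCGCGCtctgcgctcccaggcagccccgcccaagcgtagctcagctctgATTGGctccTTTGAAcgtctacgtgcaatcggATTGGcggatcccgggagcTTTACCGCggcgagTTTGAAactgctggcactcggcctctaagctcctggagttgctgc

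The Cdk1 window held 2 CHR, 3 CCAAT and 2 E2F-type matches, Ccnb2 held 2 CHR and 3 CCAAT, Ccnb1 held 2 CCAAT, and Ccne1 held none. In the Ccnb2 window the CHR nearest the start began 4 bases into the transcript, with CCAAT boxes beginning 21, 54 and 87 bases before it. Among 32851 RefSeq promoters of that length, 17.2% held a CHR, 36.1% a CCAAT box, 4.84% an E2F-type match, and 6.40% both a CHR and a CCAAT box. Of the other members, Cdkn1b (chr6:134920151-134920430, plus strand) held 2 CCAAT boxes, and Ccnd1, Ccnd2, Ccne2, Ccna2 and Cdkn1c have no promoter shown. These are matches to the exact letters given. Other forms of the 3 elements were not searched, so a window without a match may still hold one. No binding was measured.

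The first question was how the levels of cyclins and inhibitors differed between stages before the chase. From E11.5 to E16.5 all 8 cyclin and kinase transcripts fell by more than 2-fold, whereas the inhibitor Cdkn1b rose 1.47-fold and Cdkn1c did not pass the test. Expression was tested with edgeR on the 9 libraries at 0 h, and a gene is said to be called when its Benjamini-Hochberg adjusted p over all genes was under 0.05. The 8 called falls of 10 members compare with 33.1% of 18408 genes called lower, and with 14.6% called lower by more than 2-fold. The 1 call upward, Cdkn1b, compares with 31.4% of genes. The median of the members was -1.50 on the log2 scale. From E14.5 to E16.5 the same 8 transcripts were called lower, 6 of them beyond 2-fold, against 25.4% and 5.92% of all genes. Cdkn1c was the 1 member called higher in that step, in which 24.1% of genes were called higher. From E11.5 to E14.5 only 5 members were called: Ccnd1, Ccne1, Ccna2 and Ccnb2 lower, where 23.5% of genes were, and Cdkn1b higher, where 25.1% were. These are bulk measurements, in which fewer cycling cells and less RNA per cycling cell cannot be told apart. The markers of radial glia and of proliferation fell over the same stages: 7 of 8 (with 1 higher) and 6 of 6 were called lower from E11.5 to E16.5, and 9 of 9 neuron markers were called higher. Their part in the members' changes was not tested.

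**Figure D1:**
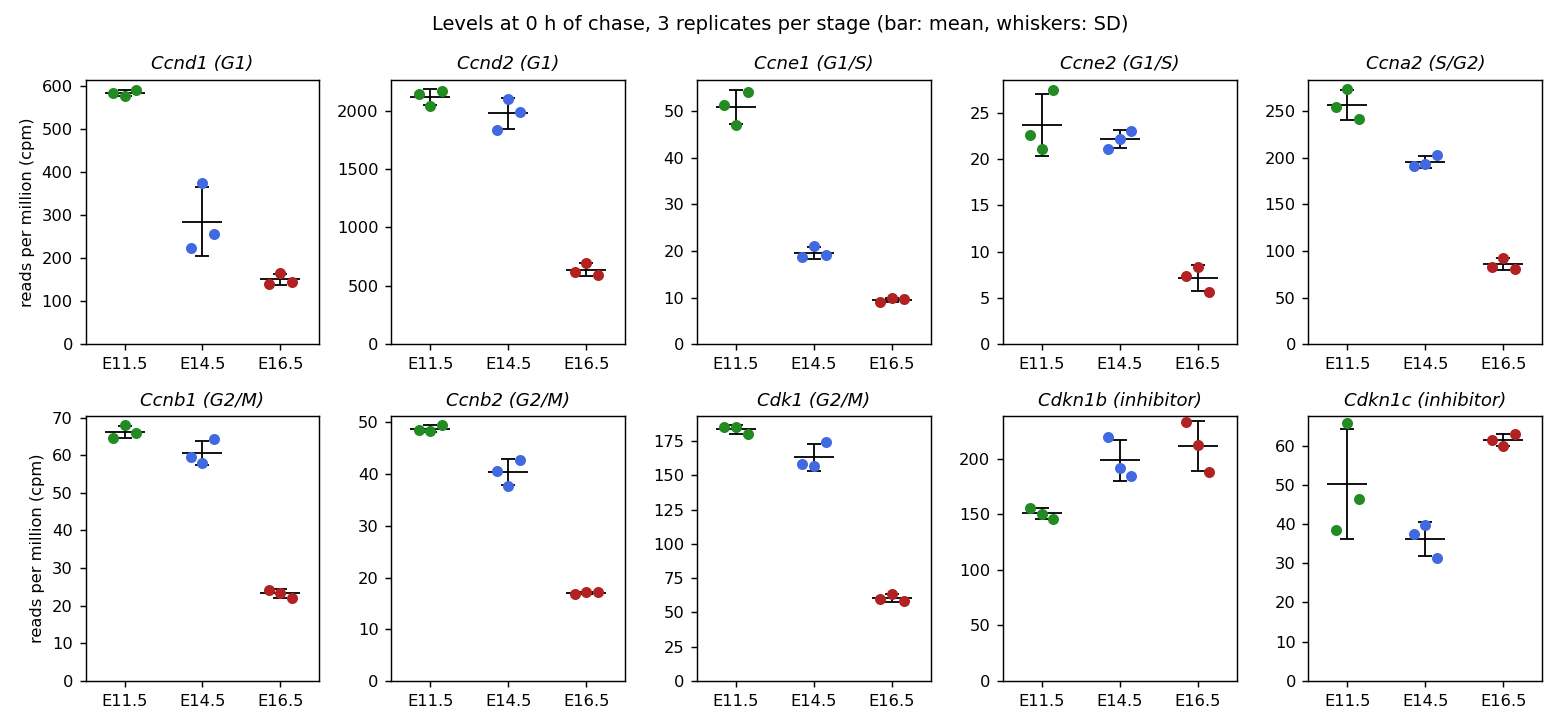
Reads per M reads (cpm) at 0 h of chase (linear axes from 0, one panel per gene) for replicates A, B and C of E11.5, E14.5 and E16.5, with the mean (bar) and SD (whiskers). The cyclins and Cdk1 sit lowest at E16.5, Ccnd1 and Ccne1 already drop at E14.5, and both inhibitors are at or above their earlier levels at E16.5.

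The G1 cyclins took different courses. Gene positions here and below are those of GENCODE release 21 on GRCm38. Ccnd2 (chr6:127125162-127152193, minus strand), the most abundant of the members, stood at 2143, 2039 and 2166 cpm in replicates A, B and C of E11.5, at 1836, 2103 and 1991 cpm at E14.5, and at 620, 698 and 594 cpm at E16.5. The first 2 stages overlapped and E16.5 lay below both. In log2 terms it moved by -0.06 ± 0.07 (SE, adjusted p = 0.536) in the step to E14.5 and by -1.60 ± 0.08 (adjusted p = 2.1e-08) in the step to E16.5. Ccnd1 (chr7:144929931-144939925, minus strand) stood at 583, 576 and 591 cpm at E11.5, at 223, 375 and 256 cpm at E14.5, and at 141, 165 and 145 cpm at E16.5. The 3 stages did not overlap, and the E14.5 replicates spread the most. Ccnd1 fell by 0.96 ± 0.14 (SE, log2, adjusted p = 0.00010) to E14.5 and by a further 0.93 ± 0.14 (adjusted p = 0.00015) to E16.5. The E14.5 pool with the most Ccnd1, replicate B, also had the most glial precursor markers, with a sum of 492 cpm against 325 and 308 cpm in A and C, and the part of those cells in its Ccnd1 level was not tested. LTO1 on the other strand overlaps 23.4% of the Ccnd1 exons and stood at 3.09% to 21.5% of its level.

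Of the G1/S cyclins, Ccne1 (chr7:38097984-38107534, minus strand) fell the most of all members. Its levels were 51.4, 47.1 and 54.2 cpm at E11.5, 18.7, 21.1 and 19.2 cpm at E14.5, and 8.98, 9.86 and 9.61 cpm at E16.5, with no overlap between stages. The log2 change was -1.32 ± 0.09 (SE) to E14.5 and -2.32 ± 0.10 to E16.5, a 5.00-fold fall over both steps (adjusted p = 4.2e-10). Its paralog Ccne2 (chr4:11191351-11204779, plus strand) stood at 22.6, 21.1 and 27.5 cpm at E11.5, at 21.1, 22.2 and 23.1 cpm at E14.5, and at 7.38, 8.39 and 5.63 cpm at E16.5. Here the earlier stages overlapped, with a log2 change of -0.09 ± 0.13 (SE, adjusted p = 0.620), and E16.5 differed from E11.5 by -1.65 ± 0.14 (adjusted p = 2.6e-07). Thus both E-type cyclins were called lower after E14.5, with log2 changes of -1.00 ± 0.09 (SE) for Ccne1 and -1.56 ± 0.14 for Ccne2. Only Ccne1 was also called lower before that stage. The sizes of the earlier and later falls of Ccne1 were not tested against each other.

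The S, G2 and M members had their larger fall after E14.5. Ccna2 (chr3:36564865-36572150, minus strand) stood at 254, 274 and 242 cpm at E11.5, at 191, 193 and 203 cpm at E14.5, and at 83.2, 92.9 and 81.0 cpm at E16.5. No stage overlapped another, and the log2 changes were -0.34 ± 0.07 (SE, adjusted p = 0.00083) and -1.15 ± 0.07 (adjusted p = 7.6e-08). Ccnb1 (chr13:100778650-100786570, minus strand) stood at 64.6, 68.0 and 65.9 cpm, at 59.6, 57.8 and 64.2 cpm, and at 24.2, 23.5 and 22.1 cpm at the 3 stages in order. E11.5 lay just above E14.5 (log2 change -0.11 ± 0.06, SE, adjusted p = 0.188), and E16.5 lay well below (-1.35 ± 0.06, adjusted p = 2.1e-08). Ccnb2 (chr9:70407692-70421547, minus strand) stood at 48.6, 48.3 and 49.5 cpm, at 40.6, 37.7 and 42.7 cpm, and at 16.9, 17.1 and 17.3 cpm. Its stages did not overlap, and it fell by 1.21 ± 0.07 (SE, log2) from E14.5 to E16.5. The fall of 0.23 ± 0.07 to E14.5 (adjusted p = 0.022) was lost when replicate A or C of E11.5, or A or B of E14.5, was left out (adjusted p from 0.053 to 0.092). Cdk1 (chr10:69335146-69352938, minus strand), the kinase of the B-type cyclins, stood at 185, 185 and 180 cpm, at 158, 157 and 175 cpm, and at 59.4, 63.8 and 58.5 cpm. Like Ccnb1 it was not called to E14.5 (-0.14 ± 0.06, SE, adjusted p = 0.095) and fell after it (-1.37 ± 0.06, adjusted p = 1.9e-08). The pseudogene Ccnb1-ps, which may share reads with Ccnb1, stood at up to 28.2% of the Ccnb1 level, and Ccnb2-ps at up to 5.14% of Ccnb2.

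The inhibitors did not follow the cyclins. Cdkn1b (chr6:134920401-134925513, plus strand) stood at 156, 151 and 146 cpm at E11.5, at 219, 191 and 185 cpm at E14.5, and at 233, 212 and 188 cpm at E16.5. The later stages overlapped each other and lay above E11.5, with log2 changes of 0.43 ± 0.09 (SE, adjusted p = 0.0011) to E14.5 and 0.12 ± 0.09 (adjusted p = 0.262) to E16.5. Cdkn1c (chr7:143458339-143461050, minus strand) stood at 38.5, 65.7 and 46.4 cpm at E11.5, at 37.4, 39.8 and 31.4 cpm at E14.5, and at 61.6, 60.0 and 63.0 cpm at E16.5. The E11.5 replicates spanned those of E16.5 and overlapped E14.5 through replicate B of the latter, and E16.5 lay above E14.5 by 0.72 ± 0.16 (SE, log2, adjusted p = 0.0024). Between E11.5 and E14.5 the change was -0.39 ± 0.16 (adjusted p = 0.059), which passed the test with the replicate block (-0.38, adjusted p = 0.036) and with DESeq2 (adjusted p = 0.021), and turned to 0.41 (adjusted p = 0.0039) where the 12 h libraries were compared instead. Between E11.5 and E16.5 it was 0.33 ± 0.16 (adjusted p = 0.090, or 0.036 with the replicate block), and 0.56 (adjusted p = 0.0027) without replicate B of E11.5. Letters do not pair pools between stages, so the block adds no support to either comparison. At E11.5 the replicates had the same order for Cdkn1c as for the 6 mural and meningeal markers, which summed to 460, 698 and 524 cpm in A, B and C. Those cells' part in the Cdkn1c level was not tested. The antisense gene Gm44732 lies over 30.7% of the exons of Cdkn1c and stood at 0.433% to 2.59% of its level.

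Levels of different genes were set against each other as cpm per kilobase of exon. Ccnd2 came first at each stage, with 225, 210 and 67.7 cpm per kb, and Ccne2 last, with 6.79, 6.34 and 2.04. Cdkn1b moved from the fifth place (33.1 cpm per kb) to the fourth (43.6) and the second (46.4), and Cdkn1c from the seventh (24.6) to the fourth place (30.2). At E16.5 the only neighbors in this order whose replicates overlapped were Ccnd1 (31.9) and Cdkn1c. At E11.5 Cdkn1b, Ccnb2, Cdkn1c and Ccne1 overlapped each with the next.

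A wider list of 48 cell cycle genes, which held the other CDKs, the Rb family, E2Fs and mitotic regulators, gave the same direction for most of its genes. Of the 47 tested, 36 were called lower and 6 higher from E11.5 to E16.5, 26 of the falls beyond 2-fold, with a median log2 change of -1.09. Its largest falls were in Cks2, a CDK subunit (-2.54 ± 0.18, SE), and in Cdkn2a (-2.50 ± 0.65) and Cdkn2b (-2.49 ± 0.47), inhibitors of the CDKs that bind D-type cyclins, all at low levels. Its largest rises were in Ccna1 (1.45 ± 0.18), the germline cyclin A, in Ccng2 (1.10 ± 0.08), a cyclin linked to cell cycle arrest, and in Rb1 (0.49 ± 0.07), the D-cyclin substrate. Cdkn2b went from 10.8, 15.7 and 9.42 cpm to 1.22, 1.21 and 3.69 cpm. Over the 45 libraries, which share pools and stages, the genes most like Ccnd2 in log2 level were Hk2 (Pearson r = 0.990), Mtfr1 (0.987) and Cenpq (0.984), those most like Ccnb1 were Cdk1 (0.988), Ube2c (0.988) and Ccnb2 (0.987), and those most like Cdkn1c were Zfand5 (0.913), Fam49b (0.910) and Rap2b (0.909). Within groups of 1 stage and time the same correlations were 0.77 for Hk2, 0.59 for Mtfr1 and 0.37 for Cenpq, 0.76 for Cdk1, 0.20 for Ube2c and 0.28 for Ccnb2, and 0.61 for Zfand5, 0.70 for Fam49b and 0.84 for Rap2b.

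The chase time allowed a further comparison, of levels within each stage after 12 h in uridine with those at 0 h. At E14.5 and E16.5 the E-type cyclins rose and the B-type cyclins and Cdk1 fell. Also called lower were the G1 cyclin Ccnd2 at E14.5 and the inhibitor Cdkn1c at E16.5. At E11.5 Ccnb1 and Ccnb2 were not called, Ccne1 and Ccne2 rose, and the inhibitor Cdkn1c fell by more than 2-fold. At E11.5 4 members were called higher and 1 lower, against 13.2% and 9.83% of 17904 genes. At E14.5 2 were called higher and 4 lower, against 7.64% and 7.41% of 17956 genes, and at E16.5 likewise 2 higher and 4 lower, against 14.2% and 12% of 18008 genes. The only changes beyond 2-fold were the fall of Cdkn1c at E11.5 and the rise of Ccne2 at E16.5.

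**Figure D2:**
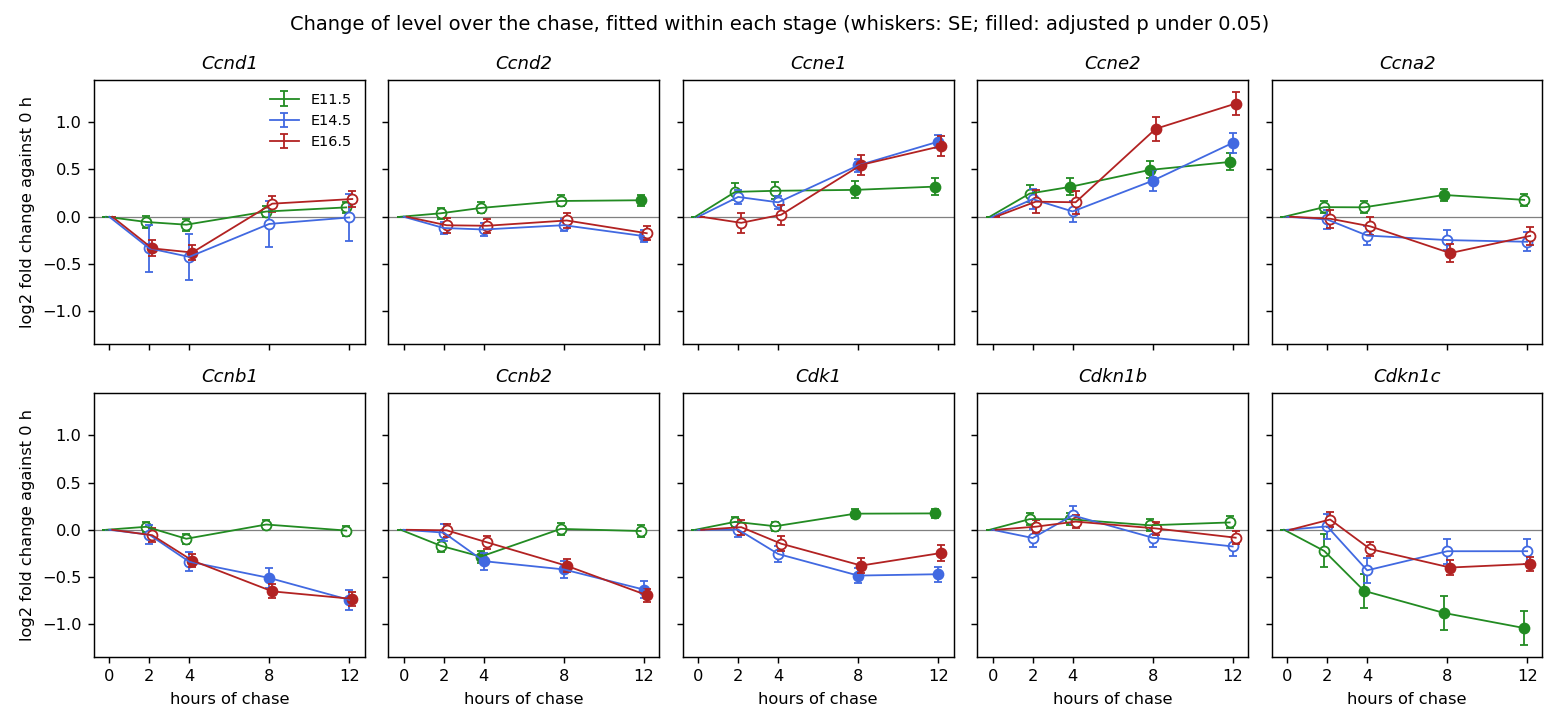
Log2 fold change of each gene against 0 h (vertical axis, TMM-normalized edgeR fits within a stage) by hours of chase (horizontal axis), with SE as whiskers and filled points where the adjusted p was under 0.05. Ccne1 and Ccne2 climb at all stages, Ccnb1 and Ccnb2 decline at E14.5 and E16.5 but lie at 0 at 12 h of E11.5, and Cdkn1c declines the most at E11.5.

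Among the E-type cyclins, Ccne2 rose at each stage. At E16.5 it went from 7.38, 8.39 and 5.63 cpm to 16.47, 15.66 and 16.70 cpm, a log2 change of 1.20 ± 0.12 (SE, adjusted p = 7.1e-06). The 2 times did not overlap. The 8 h libraries (12.7, 15.8 and 12.1 cpm) lay above all of 0 h, and replicate B had reached its 12 h level by then. The changes at E11.5 and E14.5 were 0.58 ± 0.09 (adjusted p = 0.00026) and 0.78 ± 0.11 (adjusted p = 0.00024). Ccne1 went from 18.7, 21.1 and 19.2 cpm to 32.1, 33.4 and 35.0 cpm at E14.5, and from 8.98, 9.86 and 9.61 cpm to 16.094, 16.495 and 15.444 cpm at E16.5. Neither pair overlapped, and the log2 changes were 0.79 ± 0.07 (SE, adjusted p = 4.8e-06) and 0.75 ± 0.10 (adjusted p = 9.3e-05). At E11.5 the change of Ccne1 was 0.32 ± 0.09 (adjusted p = 0.017), and it was lost without replicate A (adjusted p = 0.130) or B (adjusted p = 0.093). With the replicate block it was called (adjusted p = 0.00028). Ccne2 overlaps exons of Ints8 on the other strand over 17.4% of its own exons, and Ints8 stood at 197% to 835% of the Ccne2 level, so that reads of the pair may be mixed if strand was not used in counting.

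Among the mitotic members, Ccnb1 went from 59.6, 57.8 and 64.2 cpm to 32.3, 33.5 and 40.6 cpm at E14.5, and from 24.2, 23.5 and 22.1 cpm to 13.60, 15.03 and 12.78 cpm at E16.5. There was no overlap at either stage, and the log2 changes were -0.74 ± 0.10 (SE, adjusted p = 0.00021) and -0.73 ± 0.07 (adjusted p = 5.6e-06). At E11.5 the plain cpm was also lower at 12 h (61.3, 57.8 and 55.0 against 64.6, 68.0 and 65.9 cpm), in libraries whose median gene was lower as well, and the normalized change was -0.01 ± 0.05 (adjusted p = 0.938). Ccnb2 changed by -0.63 ± 0.09 (adjusted p = 0.00024) at E14.5, by -0.69 ± 0.07 (adjusted p = 5.1e-06) at E16.5 and by -0.01 ± 0.06 (adjusted p = 0.914) at E11.5. At E16.5 its levels went from 16.9, 17.1 and 17.3 cpm to 10.3, 11.0 and 10.4 cpm, again without overlap. Cdk1 fell at E14.5, from 158, 157 and 175 cpm to 109, 120 and 123 cpm (log2 change -0.47 ± 0.08, SE, adjusted p = 0.0012). The changes of Cdk1 were smaller at E16.5 (-0.25 ± 0.08, adjusted p = 0.035) and at E11.5 (0.17 ± 0.05, adjusted p = 0.017). The E16.5 call was lost without replicate A or C (changes of -0.22 and -0.25, adjusted p = 0.194 and 0.135). The E11.5 call was lost without any one of the 3 (changes from 0.15 to 0.19, adjusted p from 0.080 to 0.202). With the replicate block, which pairs the wells of one pool, both were called (adjusted p = 0.00034 and 0.0087). Ccna2 missed the threshold at each stage, with changes of 0.18, -0.26 and -0.20 (adjusted p = 0.055, 0.096 and 0.138), and was called at all 3 with the replicate block (adjusted p = 0.033, 0.0025 and 0.0031).

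The G1 cyclins moved little by 12 h. Ccnd2 changed by 0.17 at E11.5 (adjusted p = 0.040), -0.20 at E14.5 (adjusted p = 0.048) and -0.17 at E16.5 (adjusted p = 0.108, or 0.00071 with the replicate block). The E11.5 value was lost without replicate A (adjusted p = 0.211) or B (0.373), and the E14.5 value without any one replicate (adjusted p from 0.116 to 0.226) and with DESeq2 (0.053). With the replicate block the E11.5 and E14.5 values were called (adjusted p = 0.013 and 0.0012). Ccnd1 dipped early at E16.5, from 141, 165 and 145 cpm to 106, 131 and 117 cpm at 2 h and 105, 119 and 116 cpm at 4 h. It was back at 149, 172 and 165 cpm at 8 h. The log2 changes were -0.33 ± 0.08 (SE, adjusted p = 0.027), -0.38 ± 0.08 (adjusted p = 0.0067) and 0.14 ± 0.08 (adjusted p = 0.275, or 0.012 with the replicate block), and at 12 h 0.19 (adjusted p = 0.112, or 0.00077 with the replicate block). At E14.5 Ccnd1 had like values at 2 and 4 h, -0.33 ± 0.25 and -0.42 ± 0.25, which did not pass the test (adjusted p = 0.615 and 0.336) but did with the replicate block (-0.33 ± 0.04 and -0.42 ± 0.04, SE, adjusted p = 0.00013 and 6.0e-06).

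Of the inhibitors, Cdkn1c fell at E11.5 from 38.5, 65.7 and 46.4 cpm to 19.7, 23.8 and 19.9 cpm. The 2 times did not overlap, and the log2 change was already -0.65 ± 0.18 (SE, adjusted p = 0.040) at 4 h and reached -1.04 ± 0.18 (adjusted p = 0.00056) at 12 h. At E16.5 it went from 61.6, 60.0 and 63.0 cpm to 47.2, 46.8 and 46.6 cpm, a change of -0.36 ± 0.08 (adjusted p = 0.0028). At E14.5 the change was -0.23 ± 0.13 (adjusted p = 0.280). Mural and meningeal markers at E11.5 summed to 460 to 698 cpm at 0 h and 358 to 557 cpm at 12 h, of which 1 of 6 genes was called and that upward, and their part was not tested. Cdkn1b changed by 0.08, -0.18 and -0.08 (adjusted p = 0.422, 0.243 and 0.426), of which the E14.5 value was called with the replicate block (adjusted p = 0.021). Over the same time the glial precursor markers rose, with 4 of 4 tested called higher at each stage. The sum of the 5 listed went from 308 to 492 cpm to 773 to 939 cpm at E14.5. The 6 proliferation markers had 3 called higher at E11.5, none called at E14.5 and 2 higher and 1 lower at E16.5. Of all genes, 13.2%, 7.64% and 14.2% were called higher at the 3 stages in order, and 12% lower at E16.5. Whether the shifts of these markers bear on the members was not tested.

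Whether the change over the chase differed between stages was tested directly, as the interaction of stage and time in one edgeR fit. It differed between E14.5 and E11.5 for 7 of the 10 members, against 5.32% of 17224 genes, and between E16.5 and E11.5 for 6, against 7.36%. Between E16.5 and E14.5 it differed for 0 members, against 0.43% of genes, with 2 members at an unadjusted p under 0.05. Ccnb1, Ccnb2 and Cdk1 gave the lowest adjusted p-values. Their differences in log2 change between E14.5 and E11.5 were -0.76 ± 0.11, -0.65 ± 0.11 and -0.67 ± 0.09 (SE, adjusted p = 0.00035, 0.0016 and 0.00021), and those between E16.5 and E11.5 were -0.73 ± 0.11, -0.68 ± 0.11 and -0.42 ± 0.09 (adjusted p = 0.00050, 0.00090 and 0.0073). Both use the same E11.5 libraries. Cdkn1c differed by 0.78 ± 0.21 (adjusted p = 0.031) between E14.5 and E11.5, and by 0.67 ± 0.21 (adjusted p = 0.053, or 0.00061 with the replicate block) between E16.5 and E11.5. Leaving out single replicates left 4 to 7 calls in the former comparison and 3 to 6 in the latter, and ended the calls of Ccna2, Ccnd2, Ccne1, Ccne2 and Cdkn1c in one or more of these fits, but none of those of Ccnb1, Ccnb2 and Cdk1.

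The half-life of each transcript was next taken from the loss of T-to-C conversions over the chase, fitted as a single exponential to the rate relative to 0 h in each replicate. All 10 members passed the filters at each stage (over 500 covered Ts at each time, a half-life of 0 to 24 h and an R2 over 0.6). The members spanned most of the range of the transcriptome, from the short-lived E-type cyclins to Cdkn1c near its long-lived end. The median over all transcripts that passed was 4.43, 4.60 and 3.48 h at the 3 stages in order. The 2 extremes of the members each carry 1 copy of the AU-rich heptamer TATTTAT in their 3′ UTR. These sites are shown to let their surroundings be compared, in capitals within 29 bases read 5′ to 3′ along the transcript (GENCODE release 21, GRCm38, Ccne2 on the plus and Cdkn1c on the minus strand).
Ccne2, chr4:11204116-11204144, 1028 bases after the stop codon: tcctagaaattTATTTATttaaacttgct
Cdkn1c, chr7:143458631-143458659, 378 bases after the stop codon: tttaatatttgTATTTATccatgcgtgga

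The heptamer was found in 25.7% of 20213 3′ UTRs searched, and among those closest in length in 35.3% for Ccne2 (1577 bases) and 18.7% for Cdkn1c (688 bases). Ccnd1, Ccna2, Ccnb1 and Cdkn1b also held it, and Ccnd2, Ccne1, Ccnb2 and Cdk1 did not. The holders thus include both the shortest and the longest member, and the non-holders had mean half-lives of 2.81 to 4.91 h.

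Cdkn1c had the longest half-life of the members in 9 of 9 replicates. At E11.5 its replicates gave 13.8, 12.0 and 8.45 h (mean 11.4 ± 2.7 h, SD, n = 3). At E14.5 they gave 11.0, 8.86 and 9.48 h (9.79 ± 1.1 h), and E16.5 followed with 8.83, 10.4 and 10.3 h (9.82 ± 0.86 h). At each stage its lowest replicate lay above the highest replicate of the next member, and its means stood at the percentiles 98.4, 96.4 and 98.8 of all transcripts. After 12 h of chase its conversion rate was still 47.0%, 34.5% and 31.6% of that at 0 h, on average. Because the amount of Cdkn1c fell over the chase, the labeled amount (rate times cpm), a measure added after these values were seen, gave shorter half-lives, 5.21 ± 1.4, 7.73 ± 1.3 and 7.45 ± 0.47 h in order of stage. By this measure Cdkn1c was the longest in 8 of 9 replicates. The other inhibitor, Cdkn1b, had half-lives of 3.32 ± 0.43, 3.61 ± 0.14 and 2.78 ± 0.08 h.

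**Figure D3:**
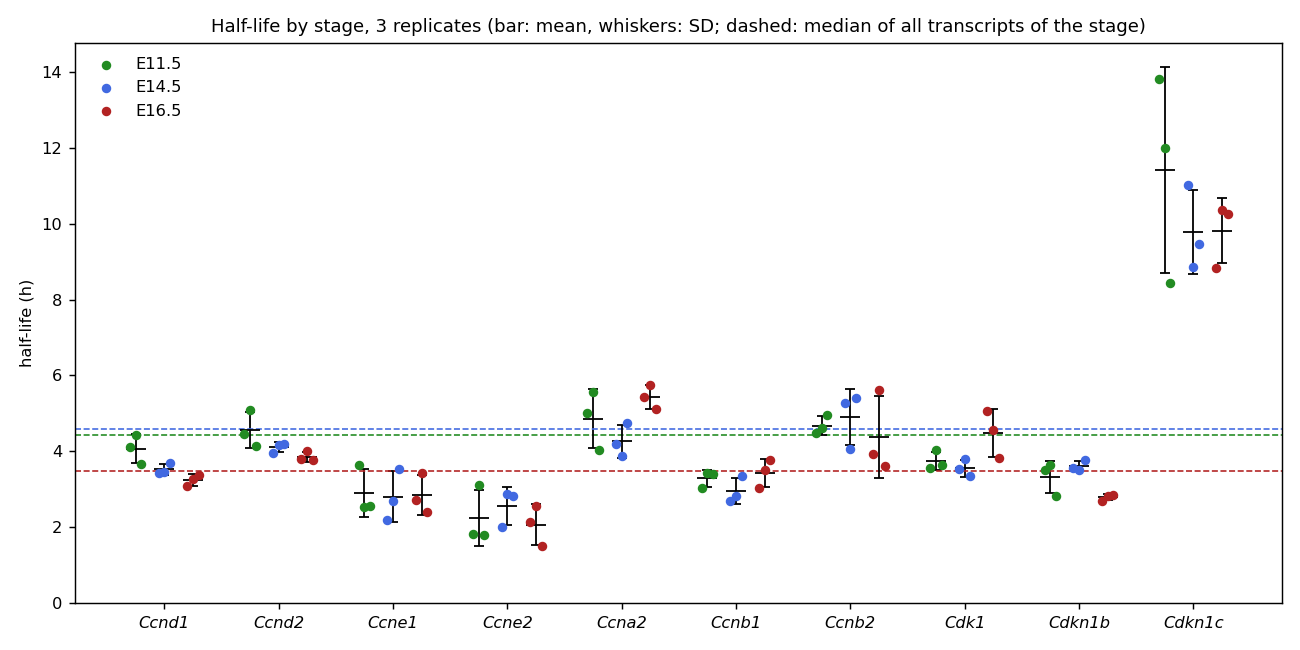
Half-life in hours (linear axis from 0) of the 10 genes in replicates A, B and C of each stage, with mean (bar) and SD (whiskers), and dashed lines at the median of all transcripts of each stage. Cdkn1c lies between 8.45 and 13.8 h in all replicates, and no other member exceeds 5.74 h.

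The cyclins were short-lived to intermediate. Ccne2 was the shortest in 7 of 9 replicates and Ccne1 in the other 2. This order rests on the fit: Ccne2 was the shortest in 4 of 9 replicates for the labeled amount, where Ccnd1 was in 3, and in 3 of 9 without the 0 h point, where Ccnb1 was in 4 (means of 2.10 and 1.79 h at E11.5 and E14.5). For Ccne2 the E11.5 replicates gave 1.83, 3.10 and 1.80 h, the E14.5 replicates 1.99, 2.88 and 2.82 h, and the E16.5 replicates 2.14, 2.57 and 1.49 h. These overlapped with Ccne1 at each stage, whose means were 2.90 ± 0.63, 2.81 ± 0.68 and 2.85 ± 0.52 h. Among the D-type cyclins, Ccnd2 (4.56 ± 0.47, 4.11 ± 0.12 and 3.85 ± 0.13 h) outlasted Ccnd1 (4.07 ± 0.39, 3.52 ± 0.14 and 3.24 ± 0.15 h) in 9 of 9 replicates. Of the later cyclins, Ccna2 gave 4.86 ± 0.78, 4.27 ± 0.44 and 5.43 ± 0.31 h, Ccnb2 gave 4.68 ± 0.25, 4.91 ± 0.73 and 4.38 ± 1.1 h, and Ccnb1 was shorter, with 3.28 ± 0.22, 2.95 ± 0.35 and 3.44 ± 0.37 h. Cdk1 gave 3.74 ± 0.25, 3.55 ± 0.22 and 4.48 ± 0.63 h. In the order of half-lives most neighbors overlapped, as did 8 of 9 neighboring pairs at E11.5.

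Set by phase, the median of the 4 S, G2 and M members lay above that of the 4 G1 and G1/S members in 9 of 9 replicates, by 0.14 to 1.74 h. The gap was 0.89 to 1.74 h at E16.5. Members are not replicates, and this is a description. It held in 9 of 9 replicates after subtraction of a background rate. That rate was 0 in replicates A and B of E14.5 and B and C of E16.5, whose fits could not change. The order held in 6 of 9 for the labeled amount (from -0.62 to 1.17 h). It held in 4 of 9 where the curve was fitted without the 0 h point (from -1.48 to 0.88 h), so the order of the 2 groups rests on how the decay is fitted. Without the 0 h point, mean half-lives also shortened by more than 1.5-fold for several members, to 1.81 h for Cdk1 and 2.15 h for Ccnd1 at E14.5, and to 5.84 h for Cdkn1c at E16.5, which still was the longest member in 9 of 9 replicates.

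**Figure D4:**
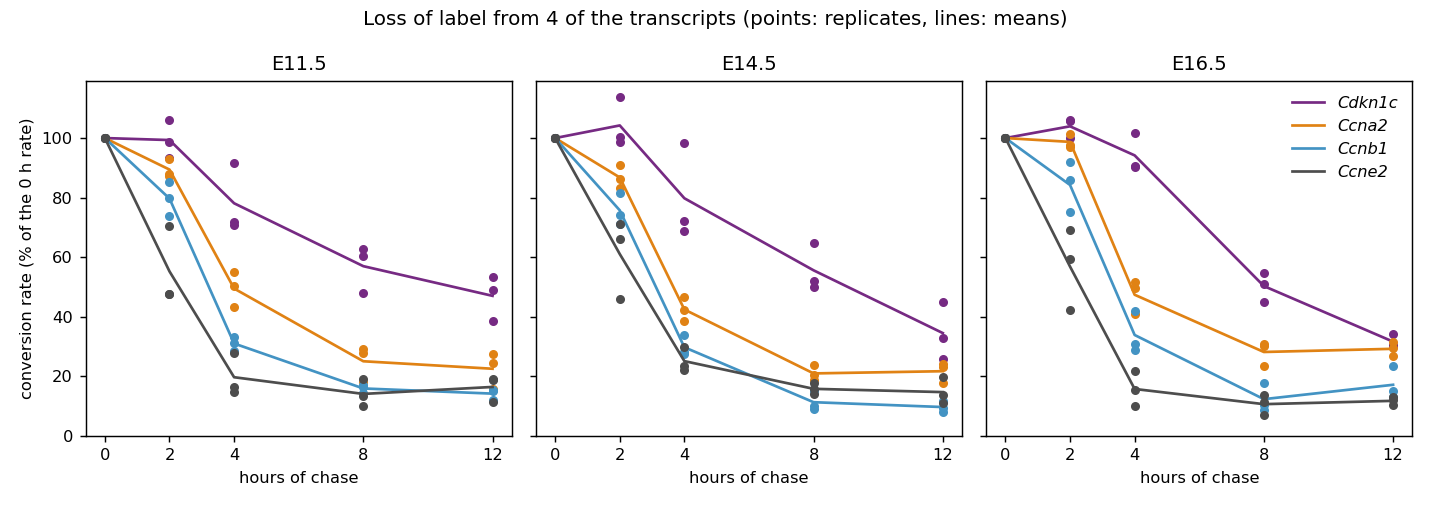
Conversion rate as a percentage of the 0 h rate (linear axis) by hours of chase for 4 of the transcripts at each stage, with replicates as points and means as lines. Cdkn1c keeps 31.6% to 47.0% of its rate at 12 h, while Ccne2 is down to 15.7% to 25.1% by 4 h.

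Whether half-lives differed between stages was tested with limma on values scaled to the mean and SD of each replicate (z-scores). Of the members 2 were called across the 3 stages, Ccna2 (adjusted p = 0.015) and Cdk1 (adjusted p = 0.049), against 3.15% of 9505 transcripts. Both lay higher at E16.5 than at E11.5, where 2.99% of transcripts were called longer. Ccna2 went from z-scores of 0.12, 0.16 and -0.07 at E11.5 through -0.30, -0.45 and -0.20 at E14.5 to 1.07, 1.18 and 0.79 at E16.5. The 3 stages did not overlap, and the difference of E16.5 from E11.5 was 0.94 ± 0.14 (SE, adjusted p = 0.013). Cdk1 went from -0.59, -0.52 and -0.30 at E11.5 to 0.84, 0.49 and 0.03 at E16.5, a difference of 0.92 ± 0.21 (adjusted p = 0.047). Among all transcripts Ccna2 thereby moved from the percentile 61.0 at E11.5 to 85.3 at E16.5, and Cdk1 from 30.9 to 72.4. In hours, without scaling, the differences were 0.57 h for Ccna2 (adjusted p = 0.329) and 0.74 h for Cdk1 (adjusted p = 0.154). With the replicate block, whose letters do not pair pools between stages, neither passed the F-test (adjusted p = 0.066 and 0.116). Leaving out single replicates left 0 or 1 member called by that test. In the comparison of E16.5 with E11.5, Ccna2 was lost in the fit without the 0 h point (0.90, adjusted p = 0.055), in which Ccnb2 was called longer (1.21, adjusted p = 0.0084). Ccna2 was also lost without E16.5 replicate A or B (adjusted p = 0.058 each) and Cdk1 without any one replicate other than E16.5 replicate C (adjusted p from 0.062 to 0.137). Ccna2 overlaps Exosc9 on the other strand over 12.5% of its exons, and Exosc9 stood at 13.5% to 75.0% of the Ccna2 level.

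The conversion rate after 20 h of 4sU is a further readout, which does not use the chase. It is a rate of T-to-C conversions and not a share of labeled molecules. The labeling period exceeded the half-life of each member, by the least for Cdkn1c (8.45 to 13.8 h). Turnover may still enter the rate of a transcript that long-lived. This was not tested, and no turnover is read from the rate. The conversion rate of each gene at 0 h was divided by that of its whole library, since the library rates differed by stage, from 1.01% to 1.44% at E11.5 and 1.03% to 1.18% at E14.5 to 1.80% to 1.91% at E16.5. Relative to the library, the cyclins and Cdk1 had mean values of 0.971 to 1.30 times the library rate at E11.5 and E14.5, and of 0.50 to 0.665 times at E16.5. No member was called between E11.5 and E14.5 by limma (0.192% of 12522 genes were), with 2 members at an unadjusted p under 0.05. From E14.5 to E16.5 9 of 10 members were called lower, against 13.8% of genes, and from E11.5 to E16.5 again 9, against 11.8%. Cdk1 stood at 1.12, 1.14 and 1.11 times the library rate at E11.5, at 1.21, 1.23 and 1.24 times at E14.5, and at 0.457, 0.460 and 0.584 times at E16.5. The last stage lay below both others without overlap, with a log2 difference of -1.30 ± 0.09 (SE, adjusted p = 0.00014) from E14.5. Ccnb1 (-1.33 ± 0.09), Ccna2 (-1.23 ± 0.09), Ccnb2 (-1.07 ± 0.11) and Ccnd1 (-1.00 ± 0.05) followed. Ccne1 (-0.68 ± 0.14) and Ccne2 (-0.81 ± 0.15) differed less. The inhibitors stood apart. Cdkn1b changed by -0.21 ± 0.05 (adjusted p = 0.023), and Cdkn1c by 0.16 ± 0.10 (adjusted p = 0.317). The Cdkn1b call was lost without any one replicate of either stage (adjusted p from 0.050 to 0.091). It was also lost with the replicate block (adjusted p = 0.061), whose letters do not pair pools between stages.

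**Figure D5:**
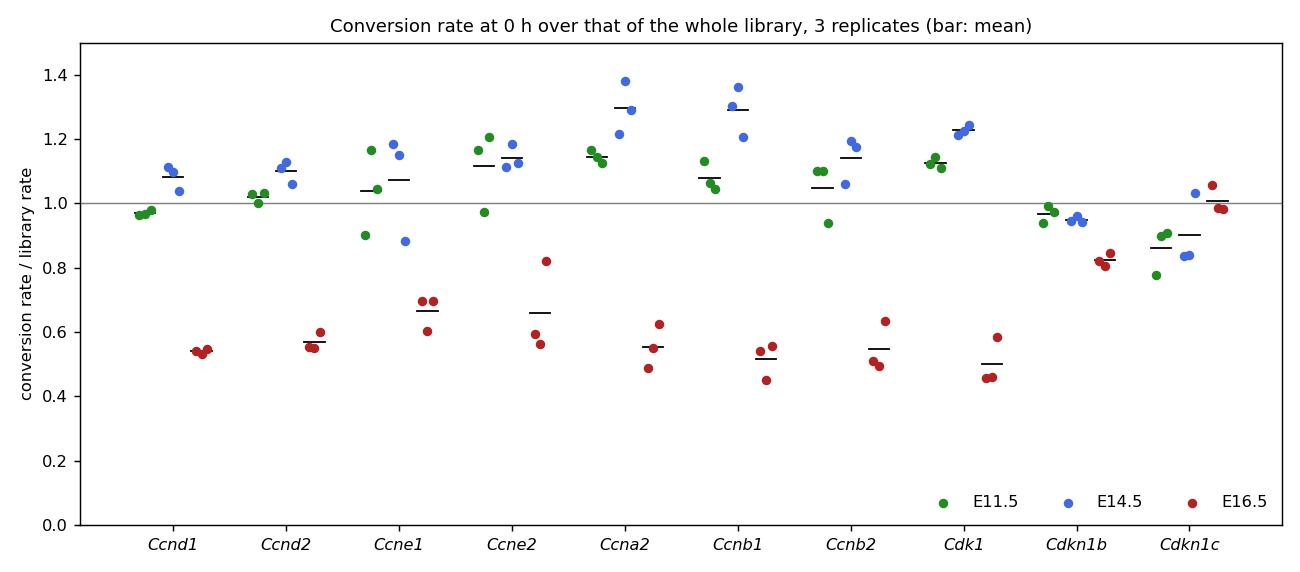
Conversion rate at 0 h divided by that of the whole library (vertical axis, linear from 0, no unit) for each gene in replicates A, B and C of each stage, with the mean as a bar and a line at 1. The 8 cyclin and kinase transcripts lie between 0.450 and 0.821 at E16.5 and between 0.884 and 1.38 before it, and Cdkn1c lies close to 1 at E16.5.

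Among all genes tested, Cdk1 moved from the percentile 83.8 of relative label at E11.5 and 89.8 at E14.5 to 1.01 at E16.5, Ccnb1 from 75.1 and 93.3 to 1.29, and Ccnd1 from 35.8 and 68.4 to 1.86. Cdkn1c went the other way, from 10.6 and 14.3 to 56.7. The undivided rates of all genes were higher at E16.5, by a median of 0.72 on the log2 scale against E14.5 and 0.63 against E11.5. On that scale Cdk1 went from 1.33%, 1.44% and 1.28% at E14.5 to 0.822%, 0.877% and 1.10% at E16.5, and Cdkn1c from 0.916%, 0.989% and 1.06% to 1.90%, 1.88% and 1.85%. On undivided rates 3 members (Cdk1, Ccnb1 and Ccna2) were called lower from E14.5 to E16.5, against 0.759% of genes, and 1 (Cdk1) from E11.5, against 0.783%, in place of 9 each. The inhibitors Cdkn1b (0.56, adjusted p = 0.0077, against E14.5) and Cdkn1c (0.93, adjusted p = 0.00068) were called higher in both comparisons, as were 81.8% and 78% of genes. Ccne1 had a value of the opposite sign that was not called (0.08, adjusted p = 0.706). The fall of relative label was not particular to cyclins. From E11.5 to E16.5, where 11.8% of genes were called lower, it was also called lower for 8 of 8 radial glia markers and 6 of 6 proliferation markers. The same held for 4 of 4 glial precursor markers tested and 22 of 43 genes of the wider cell cycle list. Relative label was called higher for 9 of 9 neuron markers, a direction for which the share of all genes is not given here. Uptake of 4sU by different cells was not measured, and its part was not tested.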

How the data were processed

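Cells were grouped by stage and chase time from the labels, in 9 tables of 5 libraries each (3 stages with 3 replicates), and no column was left unmatched. The authors aligned and counted reads with SlamDunk 0.4.3 on mm10 with GENCODE release 24. Strand use and handling of shared reads are not given in the sources used here. The deposited values were counts of covered Ts, conversion rates as a fraction, read CPM, and half-lives in hours, which were used only to check the refit (117523 of 117534 fits within 1%). Whole reads were recovered from the CPM (100% within 0.01 of a whole number). Annotation came from GENCODE release 21, which matched 51678 of 53491 gene names.

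Covered-T counts were tested with edgeR 4.0.16 (R 4.3.3, quasi-likelihood, TMM, genes with over 10 counts in all libraries of a fit), and half-lives and log2 relative label with limma 3.58.1, with Benjamini-Hochberg adjustment over all genes. Alternatives were RLE normalization, no filter, recovered reads, DESeq2 1.42.0, the replicate as a block, single replicates left out, other half-life filters and fits, undivided rates, and, added after the data were seen, the labeled amount. The fits were also run on simulated data, in which wells share no pool. The outcome is not given here, and no support is drawn from it. Patterns alike were ranked by Pearson r of log2(CPM + 0.5) among genes with a median of at least 10 CPM. The text names the 10 members, 3 genes most like each of Ccnd2, Ccnb1 and Cdkn1c, and the 3 largest called falls and rises of the wider list. The members and lists were chosen with earlier results of these data known.

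Per the labels, wells of one letter within a stage came from one pool of embryos, so letters pair samples within a stage and not between stages. Deviations from the group means correlated by a median of 0.20, 0.25 and 0.27 for wells of one pool (lowest 0.067) and of -0.16, -0.13 and -0.17 for wells of different pools, with the stages in order of age. The negative values follow from taking deviations from a mean of 3 replicates and are no separate sign of pools. The main fits do not use the pairing within a stage, so their p-values for the chase measure the spread of pools and wells together. The replicate block takes the pools into account there. No pair of libraries agreed within sampling noise (lowest chi-square per degree of freedom 2.15). Conversion rates of genes near the minimum of covered Ts carry the largest counting error.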

Additional observations from a re-analysis of the deposited data

Results flagged for a closer look

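The change of level over 12 h of chase differed between stages for 13 of 30 contrasts of a member, by the test of the interaction of stage and time (edgeR, adjusted p under 0.05). The share of all 17224 genes called was 5.32% for E14.5 against E11.5, 7.36% for E16.5 against E11.5 and 0.43% for E16.5 against E14.5. Between E14.5 and E11.5 the log2 change was lower at E14.5 for Ccna2 (-0.47), Ccnb1 (-0.76), Ccnb2 (-0.65), Ccnd2 (-0.41) and Cdk1 (-0.67). It was higher there for Ccne1 (0.44) and for Cdkn1c (0.78), whose level fell the most at E11.5. Between E16.5 and E11.5 it was lower at E16.5 for Ccnb1 (-0.73), Ccnb2 (-0.68), Ccnd2 (-0.35) and Cdk1 (-0.42), and higher for Ccne1 (0.42) and Ccne2 (0.61). Both sets of values share the E11.5 libraries, and those at 12 h are the ones in which Gm42418 took 29686 to 67623 cpm. The part of that library composition in the differences was not tested.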

How the results depend on the processing

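The 8 falls from E11.5 to E16.5 held in each fit with a replicate left out, where 9 to 10 members were called, and none of 990 comparisons of single members with a replicate left out reversed. With a replicate left out the number called was 4 to 6 for E14.5 against E11.5 and 9 throughout for E16.5 against E14.5. Over 12 h it was 2 to 4, 5 throughout and 5 to 6 at the 3 stages, and for the difference of that change 4 to 7, 0 and 3 to 6 (E14.5 against E11.5, E16.5 against E14.5, E16.5 against E11.5). For relative half-life it was 0 to 1, and for relative label 0, 8 to 9 and 7 to 9. The median half-life of the members ran from 3.76 to 4.05 h, 3.59 to 3.68 h and 3.56 to 3.72 h.

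Comparing 12 h libraries gave 8 members called for E14.5 against E11.5, with Cdkn1c reversed to 0.41, and no filter gave 3 for 12 h at E11.5. With undivided rates the label counts were 5 (3 lower, 2 higher) and 3 (1 lower, 2 higher), Ccne1 turned to 0.081 and 0.040, and Cdkn1b to 0.56 and 0.44 (against E14.5 and E11.5). Half-life counts were 0 in unscaled hours, where 2296 transcripts were called in all, and 5 of 8 tested with R2 over 0.8. The median half-life was 3.55 and 3.48 h (E11.5, E14.5) with background subtracted, 3.15, 2.70 and 2.95 h without 0 h, 3.41 and 3.42 h (E14.5, E16.5) for the labeled amount, and 3.52 and 3.40 h with R2 over 0.8. The causes were not tested.

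With the replicate block, which pairs wells of one pool within a stage and only letters between stages, 26 calls were gained and 5 lost among 250 tests of members, with no call of either fit changing sign. Of the gains 14 were at 2, 4 or 8 h, 6 at 12 h and 4 in the difference of change, and of the losses 4 were in relative half-life. The difference of change between E16.5 and E14.5 gained 1 call, Cdk1 (0.25, adjusted p = 0.045), and the half-life F-test called 0 members, with 5 at an unadjusted p under 0.05.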
